A study of Homo sapiens with 12 samples.

Results

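The epithelial-mesenchymal transition (EMT) genes described here are 10 genes: the transcription factors SNAI1, SNAI2, TWIST1, TWIST2, ZEB1 and ZEB2, the cadherins CDH1 and CDH2, the intermediate filament gene VIM and the matrix gene FN1. They were chosen by symbol and matched to Ensembl identifiers, which gave 10 of the 57820 gene identifiers in the tables, 1 for each symbol. RNA was sequenced from G401, an established human malignant rhabdoid tumour cell line, in 4 groups of 3 libraries. Every group carried the SMARCB1(-/-) genotype, and doxycycline induced either GFP, the control protein, or SMARCB1, a core protein of SWI/SNF chromatin remodellers. Both cell states received, for 24 hours, either DMSO, the solvent, or dBRD9-A, a compound that causes degradation of BRD9, a subunit of the non-canonical SWI/SNF complex. No group went without doxycycline, the labels give neither the length of the induction nor whether each line is 1 clone, and nothing in them says that replicates came from separate cultures, so p-values measure the spread between these libraries, which may be technical.

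EMT is the process by which epithelial cells lose their junctions and apical-basal polarity and gain a motile, mesenchymal form. SNAIL, TWIST and ZEB proteins are transcription factors that bind E-box sequences, and the SNAIL and ZEB proteins are best known as repressors of CDH1, which encodes E-cadherin, the main adhesion protein of epithelial junctions. CDH2 (N-cadherin), VIM (vimentin) and FN1 (fibronectin) are the usual markers of the mesenchymal state. Rhabdoid tumours arise through loss of SMARCB1 and are known for carrying keratins and vimentin together.

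The labels were checked first on SMARCB1 itself. GFP libraries held 0 to 2 SMARCB1 counts, SMARCB1 libraries in DMSO 1806 to 1911 counts per megacount (CPM), and SMARCB1 libraries in dBRD9-A 1276 to 1327 CPM, so the induced gene was lower in the treated than in the untreated SMARCB1 group. Libraries held 34.97 to 58.54 megacounts assigned to genes (1 megacount is 1e6 counts), and 3 counts, used as the floor, corresponded to 0.0513 to 0.0858 CPM; floors and intervals cover counting error only. Both rhabdoid traits were seen: VIM was at 1256 CPM or more in all 12 libraries, the simple-epithelial keratin KRT8 lay between 1863 and 2424 CPM and its partner KRT18 between 1664 and 2673 CPM. Of the markers of other cells, the leukocyte genes PTPRC and CD3E had 0 counts throughout, although the lysosomal gene CD68 was at 57.4 to 199 CPM. Endothelial markers summed to at most 1.15 CPM, and the fibroblast genes DCN, LUM and FAP never exceeded 1 count. The other fibroblast genes listed, COL1A1, COL1A2, COL3A1 and PDGFRB, were expressed in every group, and the fibroblast list summed to 1812 to 2233 CPM. The summed epithelial markers were lower with SMARCB1 (3532 to 3638 CPM) than with GFP (4696 to 5080 CPM). That sum is nearly all KRT8 and KRT18, and CDH1 (mean 0.0629 against 0.792 CPM), CLDN7 (0.774 against 1.26 CPM) and KRT19 (0.0196 against 0.320 CPM) were higher with SMARCB1 in DMSO. The leukocyte list, nearly all CD68, was lower with SMARCB1 (57.4 to 67.2 against 163 to 199 CPM); their part in the results was not tested.

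Per length of exon (CPM per kilobase of the GENCODE 29 exon union), the level of VIM in GFP cells in DMSO was 255 ± 5.13 (SD, n = 3, as for every group below). ZEB1 followed at 7.11 ± 0.0701, SNAI1 at 5.32 ± 0.281 and TWIST2 at 2.73 ± 0.0457. These neighbours in the order were separated by more than their spread. VIM was highest and TWIST2 lowest of these also in the other 3 groups, but in GFP cells given dBRD9-A SNAI1 (6.67 ± 0.204) and ZEB1 (6.47 ± 0.0457) lay within about 1 SD of each other. The other 6 members were far lower: CDH1, ZEB2, TWIST1, FN1, CDH2 and SNAI2 were each below 1 CPM in every library, and their highest group means per kilobase were 0.128 for CDH1 and 0.101 for TWIST1. G401 thus had 1 clearly detected member of each transcription factor pair (SNAI1, TWIST2 and ZEB1), far below VIM in level, with its paralogue (SNAI2, TWIST1 and ZEB2) at or near 0. TWIST1 and TWIST2 are alike in sequence, so reads may have been shared between them.

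**Figure D1:**
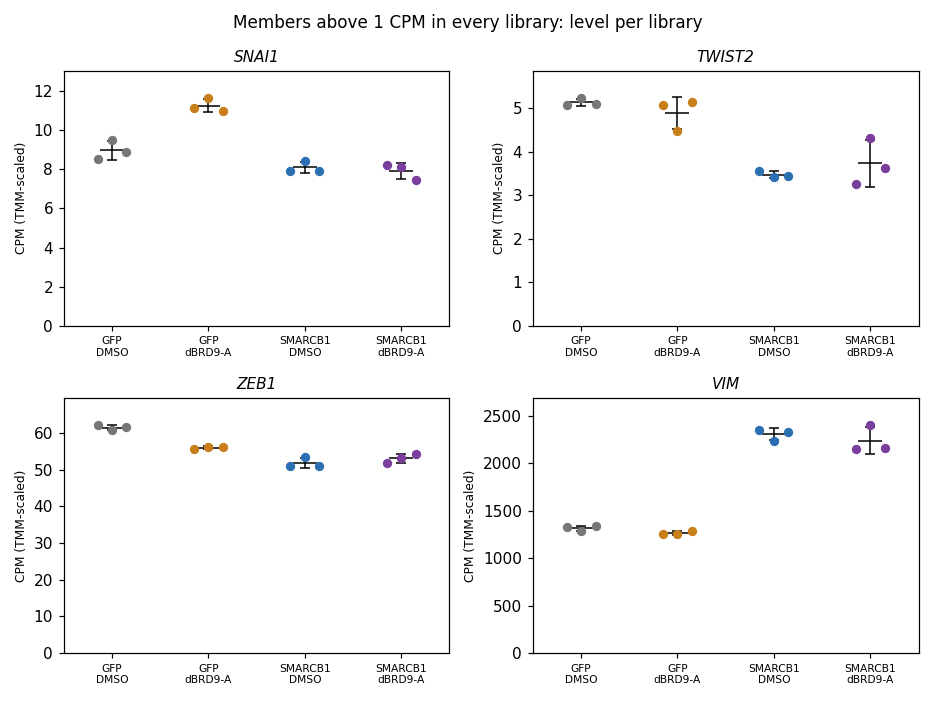
Level of the 4 members that exceeded 1 CPM in every library. Vertical axes: CPM on TMM-scaled library sizes, from 0; horizontal axis: the 4 groups; points are libraries, horizontal marks the mean and bars the SD (n = 3). VIM sits at 2150 to 2400 CPM in the 6 SMARCB1 libraries and at 1256 to 1337 CPM in the 6 GFP libraries, SNAI1 is highest in GFP cells given dBRD9-A, and ZEB1 and TWIST2 are highest in GFP cells.

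Promoter sequence (250 bases before to 50 bases after a RefSeq transcription start, GRCh38.p14) was held for 6 of the 10 members: TWIST2, ZEB1, ZEB2, CDH2, VIM and FN1, in 13 windows, since ZEB1 has 7 and CDH2 2. Shown are VIM, the member with the largest change in CPM, TWIST2, the transcription factor member with the largest fold decrease in DMSO, the ZEB1 window with the most E-boxes, and FN1, which stayed near 0. Capitals mark the E-box CAGGTG, the form bound by SNAIL and ZEB proteins (either strand, so also CACCTG), and the cAMP response element TGACGTCA.
VIM, chr10:17227991-17228290, plus strand: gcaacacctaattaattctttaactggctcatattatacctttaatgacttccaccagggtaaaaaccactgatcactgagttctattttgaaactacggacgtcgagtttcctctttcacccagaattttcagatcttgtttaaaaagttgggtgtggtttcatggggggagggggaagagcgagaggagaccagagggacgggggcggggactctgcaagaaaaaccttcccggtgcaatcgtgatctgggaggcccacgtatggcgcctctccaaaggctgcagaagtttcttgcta
TWIST2, chr2:238847835-238848134, plus strand: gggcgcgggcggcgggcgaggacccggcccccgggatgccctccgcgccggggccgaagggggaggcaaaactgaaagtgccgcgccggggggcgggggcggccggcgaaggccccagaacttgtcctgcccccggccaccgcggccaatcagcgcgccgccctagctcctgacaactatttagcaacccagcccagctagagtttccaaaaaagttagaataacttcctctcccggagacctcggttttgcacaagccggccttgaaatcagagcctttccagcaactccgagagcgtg
ZEB1, chr10:31318966-31319265, plus strand: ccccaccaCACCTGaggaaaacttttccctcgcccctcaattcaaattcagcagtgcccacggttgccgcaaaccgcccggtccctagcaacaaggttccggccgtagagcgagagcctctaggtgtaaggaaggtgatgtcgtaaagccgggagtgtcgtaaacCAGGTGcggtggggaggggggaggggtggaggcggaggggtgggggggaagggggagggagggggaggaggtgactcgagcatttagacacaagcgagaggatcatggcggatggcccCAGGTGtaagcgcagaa
FN1, chr2:215436019-215436318, minus strand: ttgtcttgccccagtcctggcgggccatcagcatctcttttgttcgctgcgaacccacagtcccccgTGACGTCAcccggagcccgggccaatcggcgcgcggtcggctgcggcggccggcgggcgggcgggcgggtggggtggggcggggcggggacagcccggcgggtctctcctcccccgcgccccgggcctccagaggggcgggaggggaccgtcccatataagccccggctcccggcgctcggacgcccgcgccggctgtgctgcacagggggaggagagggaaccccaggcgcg
The ZEB1 window holds 3 CAGGTG E-boxes, with their first bases at positions -242, -85 and 34 from the start, and another ZEB1 window holds 1, at position -57. No window of the other 5 members holds one, while 20.59% of 35116 RefSeq promoter windows of the same length do. The VIM, TWIST2 and FN1 windows also have no match to the wider E-box CANNTG, which includes CAGGTG and occurs in 68.68% of windows. The FN1 window has TGACGTCA at position -183, a match found in 1.848% of windows. The AP-1 motif TGANTCA, present in 7.709% of windows, occurs among the members in 1 CDH2 window. These matches describe letters in a window and are not measured binding sites.

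Low counts were filtered before testing, which kept 15750 genes and 6 members: SNAI1, TWIST2, ZEB1, ZEB2, CDH1 and VIM. SNAI2, TWIST1, CDH2 and FN1 had too few counts. CDH1 and ZEB2 passed only through the SMARCB1 groups, where they are higher, so their calls add nothing to a count over the members. A gene was called changed at an edgeR adjusted p under 0.05. SMARCB1 expression changed much of the transcriptome: in DMSO 65% of all genes tested were called (33.5% higher and 31.6% lower), and in dBRD9-A 63.3% (33% higher and 30.4% lower). Of the 6 members tested, 5 were called in DMSO (3 higher, 2 lower) and 6 in dBRD9-A (3 higher, 3 lower), shares that so wide a background does not set apart. Without CDH1 and ZEB2, 3 of 4 were called in DMSO (VIM higher, TWIST2 and ZEB1 lower) and 4 of 4 in dBRD9-A (VIM higher, SNAI1, TWIST2 and ZEB1 lower). Since bulk RNA was measured, fewer cells of a kind and less RNA per cell cannot be told apart.

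SNAI1, which encodes SNAIL, was lower with SMARCB1 in dBRD9-A, while a smaller difference in DMSO was not called. Its level in DMSO was 8.54, 9.48 and 8.90 CPM in the GFP libraries and 7.93, 8.44 and 7.91 CPM in the SMARCB1 libraries. The groups did not overlap, but by only a small gap between the lowest GFP and the highest SMARCB1 library. The difference in SNAI1 (log2 fold change -0.15, SE 0.06) missed the threshold with an adjusted p of 0.0571, and leaving out the first GFP library (adjusted p = 0.0412) or the second SMARCB1 library (0.0494), or keeping only genes with at least 50 counts in 3 libraries (0.0485), took it under. Every other alternative left it above, among them DESeq2 (0.149), no filter on low counts (0.119) and spike-in scaling (0.854). The highest adjusted p with 1 library left out was 0.195. In dBRD9-A the same comparison was larger: 11.1, 11.6 and 10.98 CPM with GFP against 8.20, 8.09 and 7.44 CPM with SMARCB1. All 3 SMARCB1 libraries lay well below the GFP libraries, and SNAI1 fell by 0.51 on the log2 scale (SE 0.07, adjusted p = 2.46e-06), or 1.42-fold.

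TWIST2, a basic helix-loop-helix factor that dimerises with E proteins, fell with SMARCB1 in both treatments. GFP libraries in DMSO had 5.08, 5.23 and 5.10 CPM and SMARCB1 libraries 3.56, 3.43 and 3.44 CPM. Replicates were tight and the groups well apart, and the fall was 1.48-fold (log2 fold change -0.56, SE 0.10, adjusted p = 8.91e-05). With dBRD9-A the TWIST2 values were 5.07, 4.48 and 5.14 CPM with GFP and 3.25, 4.31 and 3.63 CPM with SMARCB1. The highest SMARCB1 library came close to the lowest GFP library, and TWIST2 again fell (log2 fold change -0.38, SE 0.10, adjusted p = 0.0037).

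ZEB1, the zinc finger homeobox repressor, was also lower with SMARCB1, by a small amount. In DMSO it stood at 62.1, 60.9 and 61.5 CPM with GFP and at 51.0, 53.5 and 50.9 CPM with SMARCB1. The groups were clearly separate, and the fall was 1.19-fold (log2 fold change -0.25, SE 0.03, adjusted p = 1.69e-06). In dBRD9-A the gap narrowed to 55.5, 56.3 and 56.1 CPM against 51.7, 53.1 and 54.4 CPM. There the fall of ZEB1 (log2 fold change -0.08, SE 0.03, adjusted p = 0.0432) was only just called. Leaving out any library of that comparison except the third SMARCB1 library lost it (5 fits, highest adjusted p 0.149), as did the DESeq2 test (0.0721). Its antisense neighbour ZEB1-AS1, which overlaps it, fell as well in DMSO, from 6.46 ± 0.200 to 4.43 ± 0.406 CPM. The use of strand in counting is not given in the sources used here, so reads of ZEB1 and ZEB1-AS1 may not be fully separated.

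ZEB2, the paralogue of ZEB1, had very few counts. GFP libraries in DMSO held 0, 2 and 3 counts and SMARCB1 libraries 11, 3 and 24, and in dBRD9-A the counts were 0, 2 and 0 against 13, 9 and 10. SMARCB1 libraries were higher but uneven in DMSO, where the second touched the highest GFP count. Summed over each group, the ratio of ZEB2 per total count was 8.66 (95% interval 3.40 to 28.2) in DMSO and 13.3 (3.39 to 114) in dBRD9-A, and edgeR called both (log2 fold changes 2.98, SE 0.75, adjusted p = 0.00207, and 3.57, SE 0.95, adjusted p = 0.00336). In DMSO the fitted value for ZEB2 was 2.37 without the first GFP library and 2.38 without the third SMARCB1 library, and in dBRD9-A it was 2.99 without the first GFP library; without the second GFP library that group is at 0 counts.

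TWIST1, the paralogue of TWIST2, had 0 counts in all 3 GFP libraries in DMSO and 6, 9 and 7 counts in the SMARCB1 libraries. With dBRD9-A it had 0, 0 and 1 counts with GFP and 8, 10 and 10 with SMARCB1. Every SMARCB1 library exceeded every GFP library. Over a floor of 3 counts set for the GFP group, TWIST1 was 8.35-fold higher in DMSO. That ratio has no interval and leaves out the counting error of the SMARCB1 counts. In dBRD9-A TWIST1 was 23.2-fold higher (95% interval 3.84 to 950). The group means stayed at or below 0.205 ± 0.0247 CPM, so TWIST1 was at trace level where it was highest, while the far more abundant TWIST2 fell. SNAI2 (SLUG) gave 1 count in the 12 libraries together, in a GFP library given dBRD9-A, so no change was detectable at this depth.

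**Figure D2:**
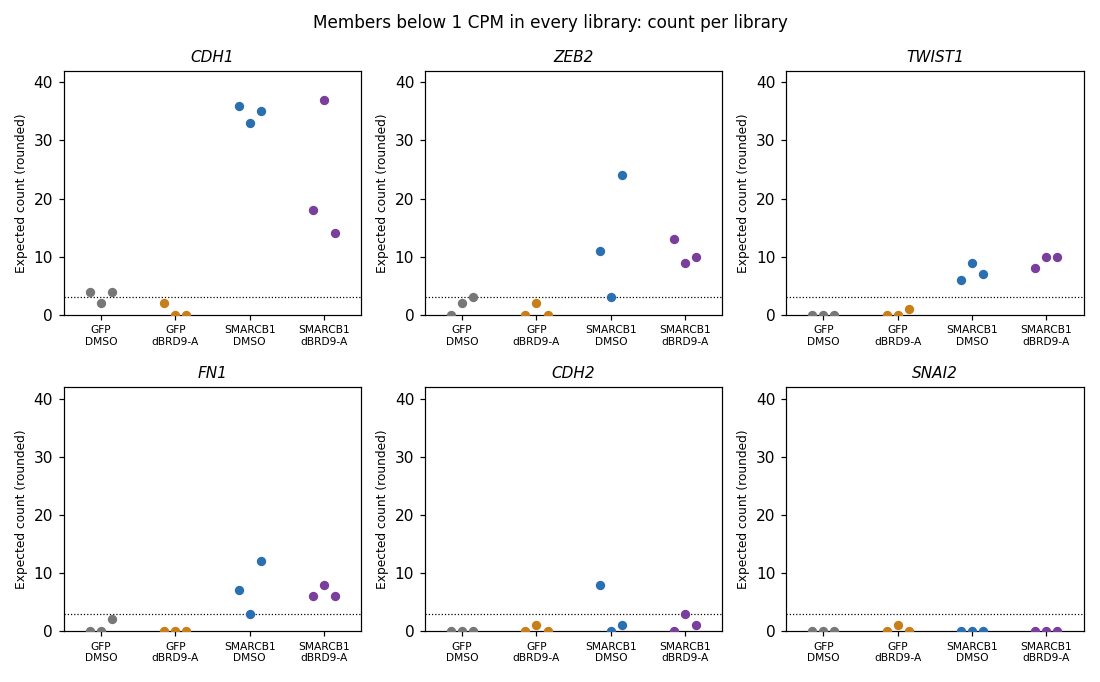
Counts of the 6 members below 1 CPM in every library. Vertical axes: expected counts rounded to whole numbers, on 1 shared scale from 0 to 42; horizontal axis: the 4 groups; points are libraries and the dotted line is the floor of 3 counts. CDH1 reaches 14 to 37 counts in the SMARCB1 libraries and at most 4 in the GFP libraries, ZEB2, TWIST1 and FN1 are lower but also sit mostly above the GFP libraries, CDH2 is above 3 counts in 1 library and SNAI2 in none.

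CDH1, the epithelial marker, was higher with SMARCB1 but remained scarce. GFP libraries in DMSO held 4, 2 and 4 counts and SMARCB1 libraries 36, 33 and 35, which is 0.0629 ± 0.0125 against 0.792 ± 0.174 CPM. In dBRD9-A the counts were 2, 0 and 0 against 18, 37 and 14. No SMARCB1 library came near a GFP library. Over summed counts CDH1 was 11.8-fold higher in DMSO (95% interval 6.19 to 25.4) and 28.6-fold higher in dBRD9-A (7.63 to 241), and edgeR gave log2 fold changes of 3.54 (SE 0.44, adjusted p = 1.33e-06) and 4.64 (SE 0.65, adjusted p = 6.93e-06). Both GFP counts in dBRD9-A came from the first library, without which that group is at 0. EPCAM, another epithelial adhesion gene, went the opposite way in DMSO, from 0.679 ± 0.0727 to 0.0199 ± 0.0178 CPM, as did KRT8 (log2 fold change -0.28, adjusted p = 3.47e-08) and KRT18 (-0.58, adjusted p = 5.02e-12). They stand among 7 of 25 tested epithelial genes that fell, while 15 rose, such as OCLN, a tight junction protein (16.3 to 33.7 CPM), and DSP, desmoplakin (444 to 714 CPM), both named after their values were seen.

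CDH2, often said to replace CDH1 in EMT, was not expressed above a trace in either state. SMARCB1 libraries in DMSO had 8, 0 and 1 counts, GFP libraries 0, and with dBRD9-A the counts were 0, 3 and 1 against 0, 1 and 0. Of the 9 counts in the first of these groups 8 came from 1 library, so the nominal rise (3.42-fold over the group floor, without an interval) rests on that library. Of the cadherins listed, CDH4 (R-cadherin), named here after its values were seen, had the most counts in DMSO, with CDH24 next, on a scale not corrected for gene length: CDH4 was at 79.7 ± 3.43 CPM with GFP and 84.4 ± 0.824 CPM with SMARCB1 in DMSO, a difference that did not pass the test (log2 fold change 0.08, adjusted p = 0.112).

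VIM, the type III intermediate filament of mesenchymal cells, had the clearest change of all members. In DMSO it measured 1329, 1287 and 1337 CPM with GFP and 2356, 2237 and 2334 CPM with SMARCB1. In dBRD9-A the values were 1257, 1256 and 1289 CPM against 2150, 2400 and 2159 CPM. The SMARCB1 libraries were all far above the GFP libraries in both treatments, and VIM rose 1.75-fold in DMSO (log2 fold change 0.81, SE 0.04, adjusted p = 1.22e-12) and 1.77-fold in dBRD9-A (0.82, SE 0.04, adjusted p = 1.11e-12). The overlapping antisense gene VIM-AS1 rose by a like amount in DMSO, from 1.95 ± 0.101 to 3.68 ± 0.111 CPM (log2 fold change 0.91, adjusted p = 9.02e-07), and again the use of strand is not given.

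FN1, the fibronectin gene, was almost silent in these cells. GFP libraries held 0, 0 and 2 counts in DMSO and 0 in dBRD9-A, and SMARCB1 libraries 7, 3 and 12 in DMSO and 6, 8 and 6 in dBRD9-A. Each SMARCB1 library exceeded each GFP library. Over summed counts FN1 was 12.5-fold higher (95% interval 3.08 to 110) in DMSO. In dBRD9-A it was 5.53-fold above a floor of 3 counts for the GFP group, a ratio without an interval. The levels with SMARCB1 were 0.155 ± 0.0698 CPM in DMSO and 0.145 ± 0.00511 CPM in dBRD9-A.

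By role, then, TWIST2 and ZEB1 were lower and VIM higher with SMARCB1 in DMSO, and CDH1, ZEB2, TWIST1 and FN1 were higher at trace level. The epithelial marker CDH1 and the mesenchymal marker VIM both rose. Scaling to the ERCC spike-in RNAs instead of TMM shifted the median over all genes tested, on the log2 scale, by 0.17 in DMSO and by -0.32 in dBRD9-A. With it VIM stayed called higher (0.98 and 0.49) and TWIST2 lower (-0.39 and -0.71), while the fall of ZEB1 in DMSO was no longer called (-0.08, adjusted p = 0.300) and SNAI1 stood at 0.02 (adjusted p = 0.854).

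**Figure D3:**
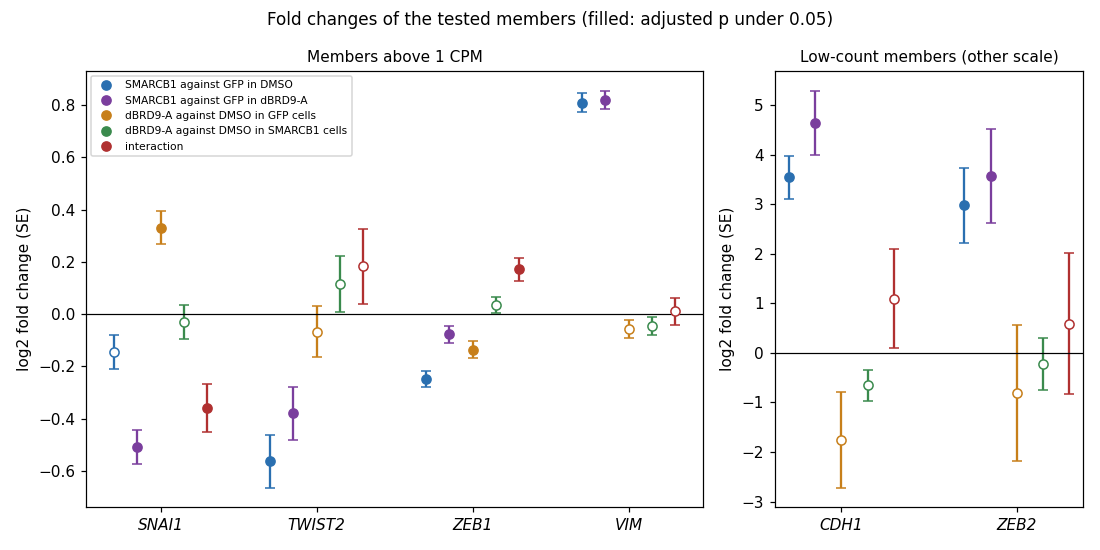
log2 fold change (vertical axis) of the 6 tested members in the 4 comparisons and the interaction. Bars are standard errors and filled points have an adjusted p under 0.05; the right panel has a wider scale for the low-count genes CDH1 and ZEB2. VIM stands near 0.8 in both SMARCB1 comparisons and near 0 in the others, and for dBRD9-A filled points occur only in GFP cells, for SNAI1 and ZEB1.

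The response to dBRD9-A was then compared within each cell state. In GFP cells 15.9% of all genes tested were called (7.43% higher and 8.47% lower), and 2 of the 6 members tested, SNAI1 (higher) and ZEB1 (lower). SNAI1 went from 8.97 ± 0.473 to 11.2 ± 0.344 CPM, and all 3 treated libraries lay above all 3 DMSO libraries. This rise was 1.26-fold (log2 fold change 0.33, SE 0.06, adjusted p = 0.00153) and was called in each fit with 1 library left out (0.30 to 0.37, highest adjusted p 0.0138). ZEB1 went from 61.5 ± 0.606 to 56.0 ± 0.395 CPM, again without overlap (log2 fold change -0.14, SE 0.03, adjusted p = 0.00603), and was likewise called in all 12 such fits (highest adjusted p 0.0310). TWIST2 (-0.07, adjusted p = 0.714) and VIM (-0.06, adjusted p = 0.333) overlapped between treatments. CDH1 had 10 summed counts in DMSO and 2 in dBRD9-A, a ratio of 0.270 with an interval of 0.0288 to 1.27, and was not called (adjusted p = 0.261). With spike-in scaling the median of all genes in this comparison moved to 0.36: SNAI1 at 0.69 stayed above that median, and ZEB1 at 0.22 and VIM at 0.30 were below it but called higher than 0, so the direction given for ZEB1 is relative to the bulk of genes.

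In SMARCB1 cells 1.93% of genes were called for dBRD9-A (0.679% higher and 1.25% lower), and none of the 6 members tested by edgeR, adjusted or at an unadjusted p under 0.05 (0 in each). DESeq2 gave an adjusted p for 4 of them, not for CDH1 and ZEB2, and called 0. SNAI1 was 8.09 ± 0.301 CPM in DMSO and 7.91 ± 0.410 CPM in dBRD9-A, ZEB1 51.8 ± 1.49 and 53.1 ± 1.35 CPM, and VIM 2309 ± 63.2 and 2237 ± 142 CPM. Each of these pairs of groups overlapped. CDH1 came nearest to a difference, with 104 summed counts in DMSO and 69 in dBRD9-A (ratio 0.653, 95% interval 0.475 to 0.894 for counting error), but the libraries overlapped and the log2 fold change of -0.65 (SE 0.31) had an adjusted p of 0.399. TWIST1 (22 and 28 summed counts), ZEB2 (38 and 32) and FN1 (22 and 20) had ratio intervals that include 1. The lower SMARCB1 level in the treated group stands beside this comparison, and its part was not tested.

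Whether the dBRD9-A response differed between the cell states was tested as an interaction, for which 3.8% of genes were called (2.15% higher and 1.65% lower). Of the 6 members tested SNAI1 and ZEB1 were called. For SNAI1 the response was lower with SMARCB1 by 0.36, a log2 interaction of -0.36 (SE 0.09, adjusted p = 0.0351), and for ZEB1 it was higher by 0.17 (SE 0.04, adjusted p = 0.0389). Both calls were close to the threshold: 9 of the 12 fits with 1 library left out lost each of them, with highest adjusted p of 0.106 for SNAI1 and 0.138 for ZEB1. Both were kept together only without the first or the second treated SMARCB1 library, SNAI1 alone also without the second GFP library in DMSO and ZEB1 alone also without the second SMARCB1 library in DMSO. DESeq2 called neither (0.0627 and 0.0669). Leaving out a library moved the size little, from -0.40 to -0.33 for SNAI1 and from 0.14 to 0.19 for ZEB1. With spike-in scaling the interaction of ZEB1 changed sign (-0.33, against a median of all genes of -0.49), and that of SNAI1 was -0.86. For VIM the interaction was 0.01 (SE 0.05, adjusted p = 0.959), and for TWIST2 0.18 (SE 0.14, adjusted p = 0.592).

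**Figure D4:**
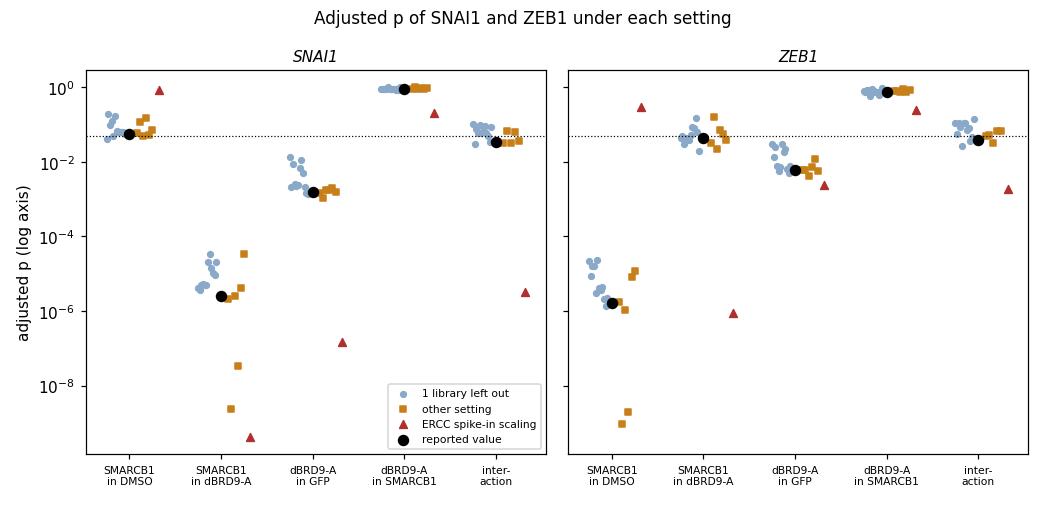
Adjusted p (vertical log axis) of SNAI1 (left) and ZEB1 (right) in each comparison under every setting. Black points are the reported values, pale points fits with 1 library left out, squares other settings, triangles spike-in scaling, and the dotted line the threshold of 0.05. The values for dBRD9-A in GFP cells all lie below the line for both genes, while those of the interaction straddle it. For ZEB1 the triangles of these 2 comparisons belong to changes of the opposite sign to the reported ones (log2 0.22 and -0.33).

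The genes around the members were followed in lists of known EMT genes. With SMARCB1 in DMSO both the epithelial and the mesenchymal list held genes that rose and genes that fell. Calls took in 88% of the epithelial and 92.9% of the mesenchymal genes tested, beside 65% of all genes, and these counts and medians are a description. Of 43 epithelial genes 25 were tested, 15 rose and 7 fell (median log2 fold change 0.47, against -0.0047 for all genes tested). The largest rises were PKP2 (plakophilin, a desmosome protein), from 0.786 ± 0.119 to 14.6 ± 0.535 CPM, and CDS1, a lipid enzyme, from 0.213 ± 0.0208 to 1.91 ± 0.0182 CPM. GRHL3, an epithelial transcription factor (3.43 ± 0.313 to 0.927 ± 0.174 CPM), and TJP3, a tight junction scaffold (7.59 ± 0.137 to 2.53 ± 0.544 CPM), fell most among list genes with a mean of at least 1 CPM. Of 37 mesenchymal genes 28 were tested, 21 rose and 5 fell (median 0.55). POSTN, NT5E and THY1 reached the filter only through the SMARCB1 libraries and so had to differ, as did CLDN1 and CDS1 of the epithelial list, while CLDN6 and EPCAM did so only through the GFP libraries. Without them, a count added after the values were seen, 13 of 21 epithelial genes rose and 5 fell, and 18 of 25 mesenchymal genes rose and 5 fell. NT5E (CD73) had 1 summed count with GFP and 1290 with SMARCB1, a ratio of 1469 (95% interval 263 to 58071), and POSTN (periostin) 4 and 289, a ratio of 82.3 (31.8 to 304). S100A4, a calcium-binding protein tied to motility, fell from 192 ± 7.80 to 4.50 ± 0.263 CPM (log2 fold change -5.43), and PDGFRA, a growth factor receptor, from 97.4 ± 0.798 to 9.98 ± 0.492 CPM (-3.29). The same direction split held in dBRD9-A, with 16 epithelial genes higher and 7 lower and 22 mesenchymal genes higher and 5 lower. Calls took in 92% and 96.4% of those tested, beside 63.3% of all genes. Without the genes that passed the filter through 1 cell state only, 14 of 21 epithelial genes rose and 5 fell. Of 25 mesenchymal genes 19 rose and 5 fell. For the full lists in dBRD9-A, however, spike-in scaling gave 11 and 10, and 13 and 7, while it called 11175 of all 15750 genes tested.

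Other transcription factors tied to EMT split evenly: of 14 tested 7 rose and 6 fell with SMARCB1 in DMSO (median -0.04), 92.9% in all, beside 65% of all genes. Without FOXC2, PRRX2 and SNAI3, which passed the filter through 1 cell state only, 6 of 11 rose and 5 fell. FOXC2, a forkhead factor, went from 3 to 392 summed counts (ratio 149, 95% interval 50.5 to 725), TBX2 from 1.61 ± 0.134 to 3.93 ± 0.564 CPM, and the helix-loop-helix inhibitors ID4 (65.1 ± 0.488 to 16.3 ± 0.606 CPM) and ID2 (63.7 ± 1.77 to 43.3 ± 1.70 CPM) fell. Of the other ID genes, both named after their values were seen, ID3 was also lower (mean 373 to 279 CPM) and ID1 was higher (139 to 188 CPM). ID proteins take E proteins away from factors such as TWIST. Among 23 tested corepressors and stability factors of SNAIL and ZEB, 14 rose and 3 fell (median 0.16, 73.9% called, beside 65% of all genes). Spike-in scaling, whose shift of 0.17 is as large, gave 17 and 0 and called 9412 of all 15750 genes tested. AJUBA, a LIM protein that bridges SNAIL to corepressors, went from 40.7 ± 2.62 to 90.6 ± 3.64 CPM (log2 fold change 1.15), and the others were small, such as FBXW7, a ubiquitin ligase subunit (0.41), RCOR1, the CoREST corepressor (-0.17), and CTDSP1, a small phosphatase (-0.12).

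TGF-beta signalling is the best known inducer of SNAIL and ZEB genes. Of 15 genes of this input tested 10 rose and 2 fell with SMARCB1 in DMSO (median 0.49, 80% called, beside 65% of all genes). The receptors TGFBR3 (6.39 ± 0.361 to 32.1 ± 1.39 CPM) and TGFBR1 (19.9 ± 0.755 to 48.7 ± 0.735 CPM) were the largest rises. BMP7, a ligand known to oppose TGF-beta in EMT, fell from 96.2 ± 3.36 to 2.86 ± 0.252 CPM (log2 fold change -5.08, adjusted p = 1.48e-21), and SMAD3, a signal transducer of the receptors, fell by 0.35 (-0.35). Of 8 tested cadherins and catenins 5 rose and none fell, a share of 62.5%, near the 65% of all genes. CDH1, among the 5, passed the filter only through the SMARCB1 libraries, and without it and CDH15, which passed only through the GFP libraries, 4 of 6 rose. CTNNB1, the beta-catenin gene, went from 485 ± 3.77 to 635 ± 11.3 CPM, and CDH24 from 4.34 ± 0.183 to 8.16 ± 0.550 CPM.

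**Figure D5:**
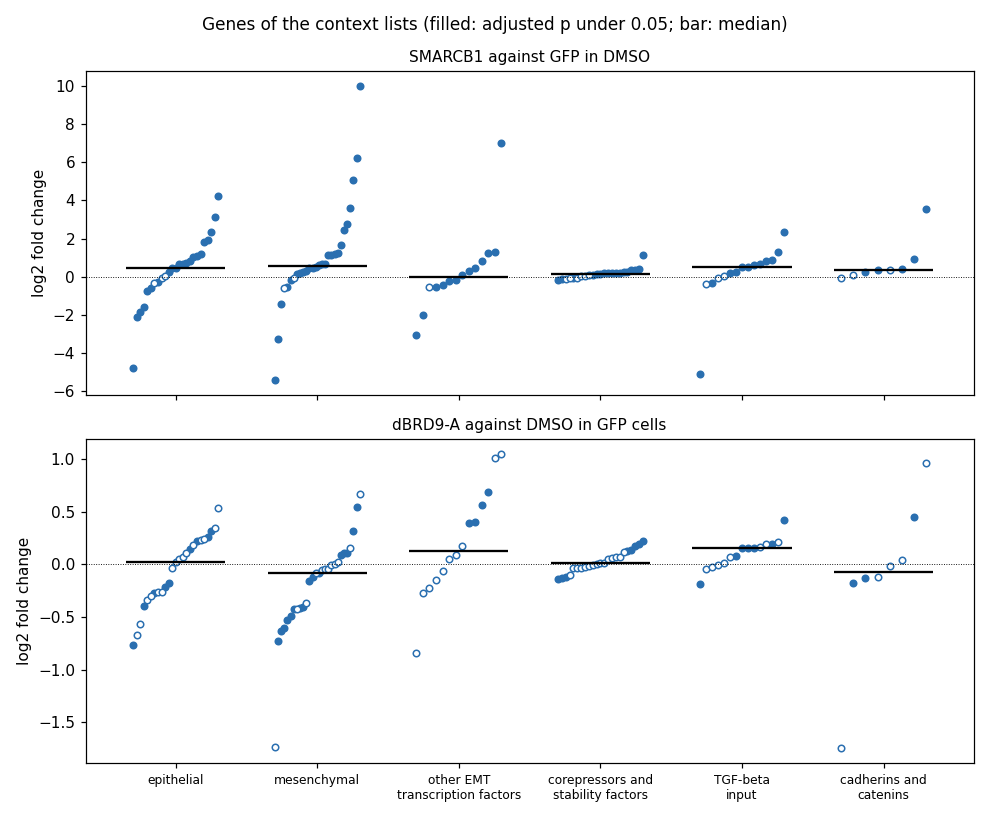
log2 fold changes (vertical axes, different scales) of the tested genes of 6 lists of EMT-related genes, each sorted by value, for SMARCB1 against GFP in DMSO (upper) and dBRD9-A against DMSO in GFP cells (lower). Filled points have an adjusted p under 0.05 and bars are list medians. With SMARCB1 the epithelial and mesenchymal lists have medians of 0.47 and 0.55 and each holds genes that rose and genes that fell, while with dBRD9-A the list medians lie between -0.09 and 0.15.

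In GFP cells dBRD9-A was called for fewer of these genes, beside 15.9% of all genes tested. Of the 28 mesenchymal genes 5 rose and 11 fell (median -0.09, or -0.07 with the 1 gene at 0 counts in a group taken at the floor). VCAN, the proteoglycan versican, went from 176 ± 5.75 to 257 ± 0.636 CPM and COL5A2, a collagen, from 256 ± 2.56 to 319 ± 8.17 CPM, while TAGLN, an actin-binding protein, went from 110 ± 6.61 to 66.5 ± 2.75 CPM and S100A4 from 192 ± 7.80 to 124 ± 2.37 CPM. Of the 25 epithelial genes 4 rose and 5 fell, with F11R, a junctional adhesion molecule (0.26), among the highest and PKP2 (-0.76) and MARVELD3 (-0.39) lowest; the call of PKP2 was lost without the first GFP library in DMSO or the second or the third in dBRD9-A (highest adjusted p 0.102). None of the 14 other EMT transcription factors fell and 4 rose, ID2 (log2 fold change 0.68, adjusted p = 1.95e-10) and ID4 (0.57, adjusted p = 2.48e-09) by most. Of the TGF-beta genes 6 rose and 1 fell, with SKIL, an inhibitor of SMAD signalling that is itself a target of the pathway, at 0.43 and the latent TGF-beta binding gene LTBP1 at -0.18. Of the corepressors and stability factors 5 rose and 3 fell, none by more than 0.23 in size, and of the cadherins and catenins 1 rose and 2 fell. Without the first DMSO library, the third DMSO library or the first treated library of the GFP cells, the TGF-beta genes called were 4, and without any GFP library other than the second in DMSO the corepressors called were 4 or 5. With spike-in scaling these splits turned to 15 higher and 4 lower for the mesenchymal list, 14 and 0 for the epithelial list and 23 and 0 for the corepressors, so the counts by direction hold relative to TMM scaling only. That scaling called 11310 of all 15750 genes tested, with a median of 0.36.

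In SMARCB1 cells, where 1.93% of all genes were called, 8 of 28 mesenchymal genes fell with dBRD9-A and none rose, with S100A4 (-0.60) and COL1A1 (-0.47) the largest. Apart from these PARD3, a polarity protein, rose (0.17) and LTBP1 fell (-0.13), the latter not without the third SMARCB1 library in DMSO (adjusted p = 0.0635). No transcription factor, corepressor or cadherin of the lists was called by edgeR, and at an unadjusted p under 0.05 there were 5, 2 and 2. DESeq2 called none of the 12 transcription factors, 23 corepressors and 6 cadherins and catenins for which it gave an adjusted p. Without the first SMARCB1 library in DMSO or the second treated one 1 transcription factor was called, and without the latter 3 TGF-beta genes. The interaction, called for 3.8% of all genes, took in 11 mesenchymal genes (6 higher, 5 lower), with TAGLN (0.70) highest and VCAN (-0.44) and COL5A2 (-0.39) lowest. It also called 4 transcription factors, all lower, led by ID2 (-0.54) and ID4 (-0.45), 3 TGF-beta genes, all lower, with SKIL (-0.31) and TGIF1 (-0.23) the largest, and among the epithelial genes F11R (-0.26). With spike-in scaling every interaction called in these lists was negative (19 mesenchymal, 15 epithelial and 10 transcription factor genes). It then called 11270 of all 15750 genes tested, and the median of all genes was -0.49.

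The miR-200 family is the best known repressor of ZEB1 and ZEB2, and its members miR-200c and miR-141 share a host transcript, MIR200CHG. Mature miRNAs were not measured, but MIR200CHG had 0 counts in each of the 12 libraries, as did MIR205HG. The mature sequences from RefSeq (GRCh38.p14) are shown with the seed, bases 2 to 8, in capitals, since the seeds differ between the pair.
hsa-miR-200c-3p: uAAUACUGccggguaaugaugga
hsa-miR-141-3p: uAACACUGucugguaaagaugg

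As a description of how the members varied over the 12 libraries, the genes most alike to each were found by Pearson correlation of log2 CPM over 12723 genes. The libraries share the 4 groups, so a high r mostly restates the group means. VIM was closest to TUBB6 (r = 0.999) and PTPMT1 (0.998), and 2760 genes had an r above 0.9 with it. TWIST2 was closest to JPH3 (0.987) and ZNF581 (0.979), with 1045 genes above 0.9. CDH1, below 1 CPM in every library, was closest to APPL2 (0.982) and CENPT (0.980), with 1810 genes above 0.9. ZEB1 was closest to COX18 (0.973) and DLAT (0.972), and SNAI1 to C1orf131 (0.966) and IGDCC3 (0.964), with 334 and 138 genes above 0.9. ZEB2, with its few counts, was closest to CDKAL1 (0.967) and SMIM14 (0.954). No member was among the closest genes of another.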

How the data were processed

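Per the labels' protocols, a Qiagen RNeasy kit gave the RNA and a TruSeq Stranded mRNA kit the libraries. The authors deposited tables of expected counts per gene, whose values need not be whole (2.57% were not). STAR, RSEM 1.3.1, DESeq2 and the builds GRCh37 and hg19 are named, with no roles, per the submitters' processing notes. The annotation and the use of strand are not given in the sources used here. Libraries present in 2 tables (6) had identical values.

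Counts were rounded. The 40 ERCC identifiers, 0.963% to 1.30% of a library's counts, stayed out of library sizes and tests, and how the spike-ins were added is not given in the labels. In R 4.3.3, edgeR 4.0.16 (filterByExpr with a minimum count of 10, TMM, quasi-likelihood test) was fitted to all 12 libraries with 1 coefficient per group. P-values were adjusted by the Benjamini-Hochberg method over 15750 genes, with a threshold of 0.05, and no list was tested as a set. CPM use TMM-scaled library sizes. Members with few counts were also summed per group and compared with an exact conditional 95% interval. The script was tested on simulated data. Alternatives were DESeq2 1.42.0, DESeq2-type size factors, spike-in scaling, other filters, a replicate block and 1 library left out. Exon lengths and overlaps come from GENCODE 29, matched for 52338 identifiers, which may differ from the authors' annotation. Symbols matched 51996 identifiers.

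Between replicates, counts differed beyond sampling noise (chi-square per degree of freedom 3.03 to 26.0). Members and lists were chosen with earlier results of these data known. All members are named. From each list and comparison at most the 2 largest rises and 2 largest falls with a mean of at least 1 CPM are named, and for each tested member the 2 genes most alike; some genes that this rule picks are not reported here. The labels give no batch. That the alternatives were also run on the lists was decided after seeing the data.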

Additional observations from a re-analysis of the deposited data

Results flagged for a closer look

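The response to dBRD9-A differed between the GFP and SMARCB1 cell states, by the interaction term of the edgeR fit, for SNAI1 and ZEB1 among the members. The log2 interaction of SNAI1 was -0.36, with a change of 0.33 in GFP cells and of -0.03 in SMARCB1 cells. That of ZEB1 was 0.17, with a change of -0.14 in GFP cells and of 0.03 in SMARCB1 cells. Neither call was kept by DESeq2 or in most fits with 1 library left out. No group has the 4 or more libraries that a check for single outlying libraries needs.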

How the results depend on the processing

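Among the 6 tested members, VIM and TWIST2 changed with SMARCB1 in both treatments, and SNAI1 with SMARCB1 in dBRD9-A. These changes kept their direction and stayed called under every alternative that tested them, apart from the limit on fold change. The rise of SNAI1 for dBRD9-A in GFP cells did as well. CDH1 and ZEB2 also stayed called with SMARCB1, but both passed the filter only through the SMARCB1 groups, so this adds no support. The members called with SMARCB1 in DMSO numbered 8 with no filter on low counts (28732 genes tested, 10861 called), since TWIST1, FN1 and CDH2 then entered and were called, and 2 when a change of at least 1 in size on the log2 scale was also asked for, as in dBRD9-A (2). These 2 were CDH1 and ZEB2 in both treatments, so they add no support either. VIM (0.81 and 0.82), SNAI1, TWIST2 and ZEB1 fell short of that size. The share of all genes that meets this limit is not given here. For dBRD9-A in GFP cells the members called were 4 with spike-in scaling and 0 with the limit on fold change. That scaling called 11310 of all 15750 genes tested in this comparison, so the 4 do not stand apart. For the interaction, members called were 0 with no filter, 0 by DESeq2, 1 with the replicate block, 0 with the limit on fold change, and 0 to 2 with 1 library left out. With the replicate block ZEB1 lost the interaction (adjusted p = 0.0672) and its fall with SMARCB1 in dBRD9-A (0.0568); the block ended no other call of a member. Same-numbered libraries did not deviate together (correlations of -0.0892 to 0.0573), so the numbers are taken as names only.

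With spike-in scaling the direction reversed for TWIST2 (0.29), ZEB1 (0.22), VIM (0.30), CTNNA1 (0.22), LTBP1 (0.18), LIMD1 (0.22), LATS2 (0.23), JUP (0.19) and ZEB1-AS1 (0.0202) for dBRD9-A in GFP cells, for ZEB1 (-0.33) and VIM (-0.49) in the interaction, for CTDSP1 (0.0454) with SMARCB1 in DMSO and for GSK3B (-0.0112) with SMARCB1 in dBRD9-A. That scaling moves the median of all genes by 0.36, -0.49, 0.17 and -0.32 in these comparisons. Whether spike-ins were matched to cell number or RNA mass is not given, and which scaling fits the cells was not tested.

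Depth limits CDH1, ZEB2, TWIST1, FN1, CDH2 and SNAI2, whose ratios rest on at most 104 summed counts a group. The small changes of SNAI1 and ZEB1 rest on 3 libraries a group.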
